A study of Oryctolagus cuniculus with 8 samples.

Results

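The MAP kinase phosphatases are the branch of the dual-specificity phosphatase family that carries a MAP kinase binding domain. Their members were taken by gene symbol as DUSP1, DUSP2, DUSP4, DUSP5, DUSP6, DUSP7, DUSP8, DUSP10 and DUSP16, 9 genes in all. The table held 25666 gene rows, 19293 of them protein coding, and 8 of the 9 symbols had 1 row each. DUSP8 was not analysed here. All 8 remaining members passed the filter on low values (at least 1 FPKM in at least 2 libraries), and each was above 1 FPKM in all 8 libraries, so none entered through a single diet. FPKM is the number of fragments scaled by gene length and library depth, and is the scale on which genes of different length can be compared.

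The libraries were RNA-seq of dissected retinas from male wild-type Chinchilla rabbits, which were 12 to 16 weeks old when housed and about 10 months old at sequencing. Each rabbit ate 1 of 4 diets for 6 months, all made from the standard rabbit chow, and each diet had 2 retinas. ND was the chow alone, HFD had 10% lard added together with 0.5% cholesterol, HSD had 40% sucrose added, and HFSD had the same lard and cholesterol as HFD together with 35% sucrose. The sucrose content of HSD and HFSD thus differed. The labels do not tie the 2 retinas of a diet to separate animals, so the p-values below measure only the spread between these retinas. The question was which transcripts of the retina differ from ND after each diet. The tissue is bulk: fewer cells of a type and less RNA per cell cannot be told apart in any value given here.

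MAP kinase phosphatases remove the phosphates from the threonine and the tyrosine that activate a MAP kinase, and so end its signal. DUSP1, DUSP2, DUSP4 and DUSP5 are nuclear enzymes whose genes are mostly induced by growth factors, neuronal activity or stress. DUSP6 and DUSP7 are cytoplasmic and prefer ERK, and DUSP8, DUSP10 and DUSP16 prefer JNK and p38. Several of these genes are targets of the pathway they switch off, and DUSP6 is widely read as a sign of ERK activity downstream of fibroblast growth factor receptors.

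Fragments over all genes ranged from 15223613 to 22293559 per library, and the members of lowest level still had 64 to 151 fragments (DUSP5). Markers of rods summed to between 33865 and 45041 FPKM in every library, and no marker list summed higher. Some marker lists of other tissue stood apart by library. Markers of the pigment epithelium summed to 330 and 241 FPKM in the ND retinas against 25.1 to 86.9 in the 6 diet retinas, and 8 of the 10 genes were lower in all 6. Skeletal muscle markers summed to 438 FPKM in HSD replicate 2 against 1.34 to 3.45 elsewhere, and myelin markers to 699 in ND replicate 1 against 45.4 to 467 elsewhere.

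On the FPKM scale, DUSP2 was the most abundant member in every diet. In ND its 2 retinas (493 and 198) lay above both of DUSP6 (33.3 and 55.3), and these above both of DUSP4 (22.7 and 23.4). DUSP7 (15.6 and 15.1) and DUSP16 (14.3 and 15.9) overlapped, so their order is not fixed by 2 retinas. DUSP10 (13.5 and 13.9), DUSP1 (4.14 and 4.39) and DUSP5 (2.67 and 2.78) followed without overlap between neighbours. The ND order did not hold in the other diets. In HFD DUSP1 came next after DUSP2 by mean, through 55.2 FPKM in replicate 2, and DUSP4, DUSP6 and DUSP16 overlapped as neighbours. In the sucrose diets DUSP10 came next after DUSP2 by mean, but DUSP6 overlapped it in both. DUSP10, DUSP6, DUSP16, DUSP7 and DUSP4 formed a chain of overlapping neighbours in HSD between 9.26 and 17.6 FPKM.

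**Figure D1:**
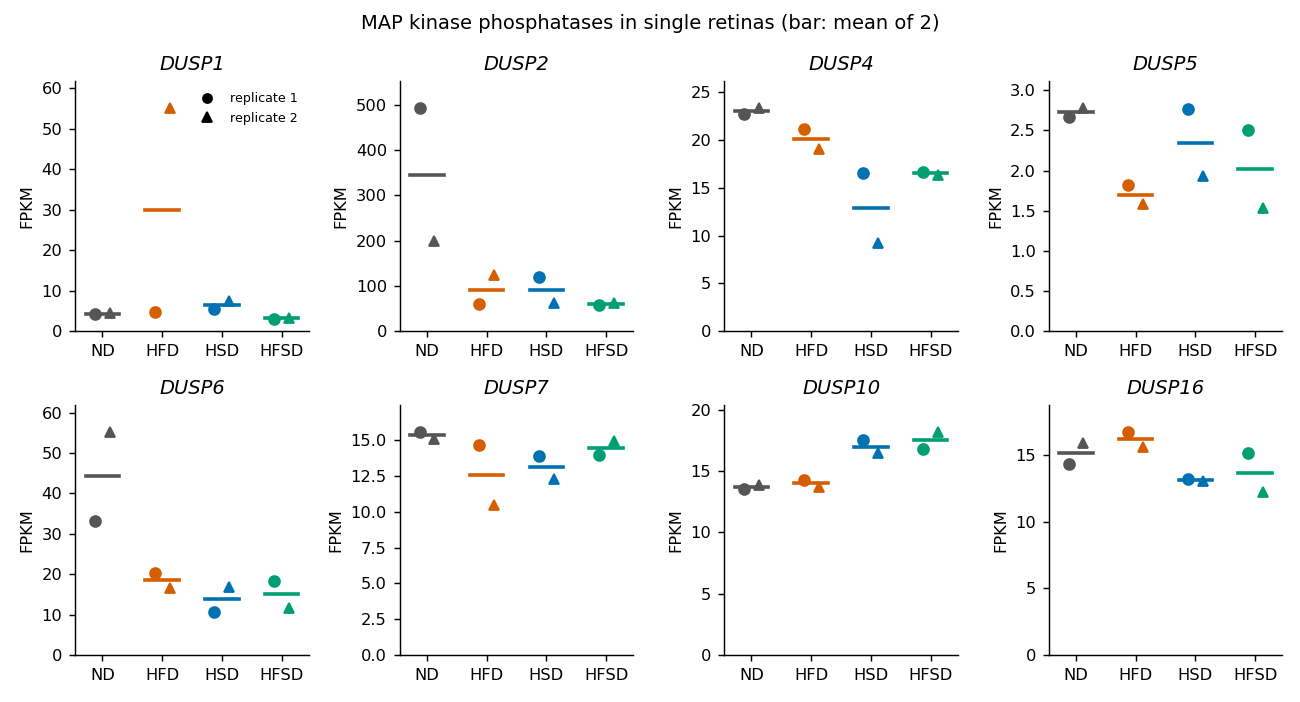
FPKM of each MAP kinase phosphatase (vertical axes, linear from 0, a separate scale for each gene) in single retinas of each diet (horizontal axis), with replicate 1 as a circle, replicate 2 as a triangle and the mean of 2 as a bar. DUSP2 and DUSP6 were lower in all 6 diet retinas than in both ND retinas, DUSP1 stood at 55.2 in HFD replicate 2 alone, and DUSP4 and DUSP10 separated the sucrose diets from ND and HFD.

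Against ND, DUSP2 and DUSP6 were lower after each of the 3 diets, DUSP4 was lower after sucrose and DUSP10 slightly higher after sucrose, while DUSP5, DUSP7 and DUSP16 differed from ND by at most 0.47 on the log2 scale. None of these differences passed the test across all genes. In limma on log2(FPKM + 1), with Benjamini-Hochberg adjustment over 12204 protein-coding genes, 0 of 8 members had an adjusted p below 0.05 in each of 5 comparisons: HFD, HSD and HFSD against ND, the fat by sucrose interaction, and the mean of the 3 diets against ND. Of all genes tested, 0.00819%, 0.0574%, 0.0164%, 0.00819% and 0.0246% passed in these comparisons in that order, so a call was rare for any gene. The words higher and lower below therefore describe the values of these retinas.

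DUSP2, a nuclear phosphatase best known from activated lymphocytes and an early response gene, had 493 and 198 FPKM in ND. The HFD retinas had 59.5 and 124, the HSD retinas 119 and 62.9, and the HFSD retinas 57.6 and 63.0. Both ND retinas lay above all 6 diet retinas, although the ND retinas themselves differed 2.48 times. The log2 fold change was -1.85 ± 0.51 (SE) for HFD, -1.84 ± 0.51 for HSD and -2.36 ± 0.51 for HFSD, with adjusted p = 0.998, 0.443 and 0.287 (limma, Benjamini-Hochberg). Without ND replicate 1 the HFD and HSD values were -1.20 and -1.18. By the study's fold formula, a ratio of FPKM + 1 that was applied here to the means of the 2 retinas, DUSP2 stood at 0.267 of ND after HFD, at 0.266 after HSD and at 0.177 after HFSD. Leaving out any 1 retina kept these ratios between 0.124 and 0.464, and all passed the study's lower limit of 0.65. The lymphocyte markers, 4 of 8 with a row in the table, summed to at most 0.298 FPKM in any library, and 0 of them reached the filter on low values.

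DUSP4, a nuclear phosphatase of ERK and JNK, had 22.7 and 23.4 FPKM in ND and 21.2 and 19.1 in HFD. In the sucrose diets it had 16.6 and 9.26 in HSD, and 16.6 and 16.4 in HFSD. The 4 sucrose retinas were thus all below the 4 retinas without sucrose, a split looked for after these values were seen, and one that 6.48% of all genes tested showed. The HSD difference was -0.84 ± 0.23 on the log2 scale with adjusted p = 0.441, and the HFSD difference was -0.46 ± 0.23 with adjusted p = 0.667 (limma, Benjamini-Hochberg). HSD replicate 2, the retina with muscle transcripts, gave the lowest value. Without it the HSD ratio to ND rose from 0.579 to 0.731, inside the study's limits. Markers of Müller glia, the radial glia that span the retina, summed to between 2597 and 2764 FPKM in the sucrose retinas and between 3501 and 4742 in the others. Of these markers, GLUL, CLU and RLBP1 each split the same way, while VIM, SLC1A3, DKK3, HES1, SOX9 and AQP4 overlapped. The part of Müller glia in the DUSP4 values was not tested. The DUSP4 row overlaps the RefSeq gene LOC138848500, and reads of overlapping genes cannot be told apart where strand was not used.

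DUSP1, the stress- and glucocorticoid-inducible phosphatase of p38, JNK and ERK, was between 3.10 and 7.57 FPKM in 7 retinas and at 55.2 in HFD replicate 2. HFD replicate 1 had 4.63, close to ND with 4.14 and 4.39. HSD had 5.56 and 7.57, and HFSD had 3.10 and 3.34. The HFD difference of +1.76 ± 0.88 on the log2 scale (adjusted p = 0.998, limma with Benjamini-Hochberg) therefore rested on 1 retina. Without HFD replicate 2 it was 0.10, and without HFD replicate 1 it was 3.42 with adjusted p = 0.021, the lone HFD retina then being assumed to vary like the other groups. The ratio of mean FPKM + 1 was 5.87 with both HFD retinas, and ran from 1.07 to 10.7 when single retinas were left out. The HSD and HFSD differences were +0.51 and -0.32 with an SE of 0.88.

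DUSP5, a nuclear phosphatase of ERK alone, was the least abundant member. The ND retinas had 2.67 and 2.78 FPKM, the HFD retinas 1.82 and 1.58, the HSD retinas 2.76 and 1.93, and the HFSD retinas 2.51 and 1.537. Both HFD and both HFSD retinas were below ND, and HSD overlapped it. The log2 differences of -0.47, -0.17 and -0.32 each had an SE of 0.22. The HFSD value was -0.56 without HFSD replicate 1 and -0.09 without HFSD replicate 2, and the HSD value was -0.35 and 0.01 without HSD replicates 1 and 2.

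DUSP6, the cytoplasmic ERK phosphatase, had 33.3 and 55.3 FPKM in ND. The HFD retinas had 20.3 and 16.7, the HSD retinas 10.7 and 16.8, and the HFSD retinas 18.4 and 11.6. All 6 diet retinas were below both ND retinas, and the 3 diets overlapped one another. The log2 fold changes were -1.18, -1.60 and -1.49 for HFD, HSD and HFSD, each ± 0.32 (SE), with adjusted p = 0.998, 0.246 and 0.286 (limma, Benjamini-Hochberg). The ratios of mean FPKM + 1 were 0.430, 0.326 and 0.353, and no omission of 1 retina took any of them above 0.569. Unlike DUSP2, DUSP6 was higher in ND replicate 2 than in ND replicate 1.

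The pigment epithelium markers given above were also higher in both ND retinas, as were DUSP2 and DUSP6. Their part in the DUSP2 and DUSP6 values was not tested. Within ND the marker sum, made up mostly of RPE65 and TTR, was higher in replicate 1, and DUSP6 was higher in replicate 2. The single markers went both ways: RPE65, TTR, LRAT, RDH5, MLANA and DCT were higher in replicate 1, and TYRP1, PMEL, SLC45A2 and BEST1 in replicate 2.

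DUSP7, the close relative of DUSP6, had 15.6 and 15.1 FPKM in ND. The HFD retinas had 14.7 and 10.5, the HSD retinas 13.9 and 12.3, and the HFSD retinas 14.0 and 14.9. All 6 diet retinas were below both ND retinas, but by little: the log2 differences were -0.29, -0.21 and -0.08, each ± 0.16 (SE). The HFD value was -0.51 without HFD replicate 1 and -0.06 without HFD replicate 2. This separation depended on the scaling. The FPKM of protein-coding genes summed to between 529976 and 613559 per library, and with equal totals the DUSP7 ranges of ND and the diets overlapped.

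DUSP10, a phosphatase of JNK and p38, had 13.5 and 13.9 FPKM in ND and 14.3 and 13.7 in HFD. It had 17.6 and 16.4 in HSD and 16.8 and 18.2 in HFSD. The 4 sucrose retinas were all above the 4 without sucrose, as was true of 6.39% of all genes tested, and the separation held with equal totals. The differences were small, +0.29 ± 0.11 for HSD and +0.33 ± 0.11 for HFSD on the log2 scale, with adjusted p = 0.634 and 0.539 (limma, Benjamini-Hochberg). Its SE was the smallest of the 8 members.

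DUSP16, another JNK and p38 phosphatase, had 14.3 and 15.9 FPKM in ND and 16.8 and 15.6 in HFD. It had 13.2 and 13.0 in HSD and 15.1 and 12.2 in HFSD. Only the HSD retinas were both outside the ND range, and the log2 differences of +0.09, -0.19 and -0.14 each had an SE of 0.13. The DUSP16 row overlaps the RefSeq gene LOC100351246, with the same limit as for DUSP4.

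**Figure D2:**
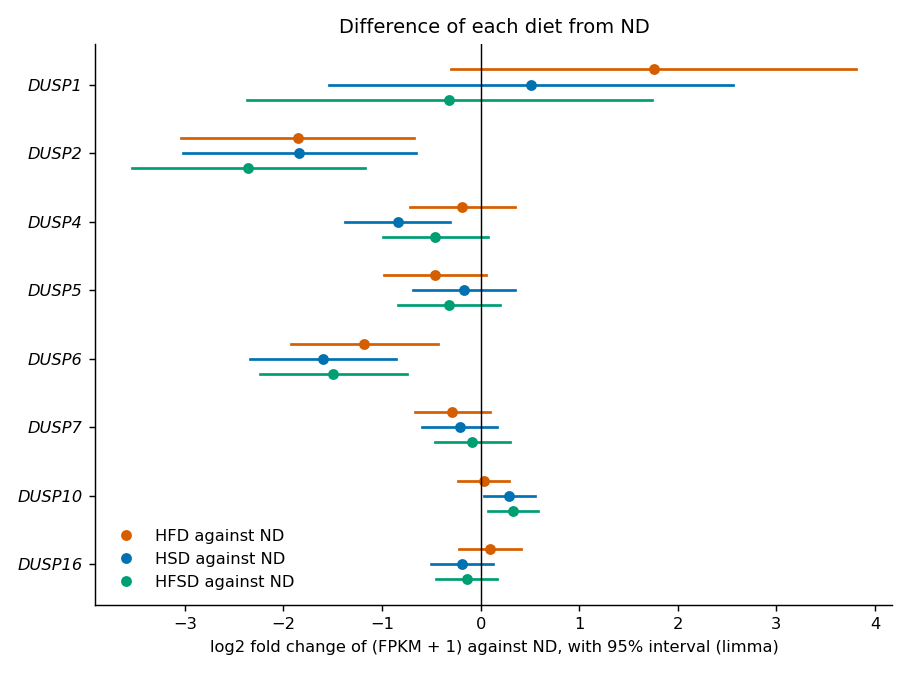
Log2 fold change of FPKM + 1 against ND (horizontal axis) for each member and diet, as points with 95% intervals from limma. The intervals of DUSP2 and DUSP6 lay below 0 for all 3 diets, that of DUSP4 for HSD, and those of DUSP10 lay above 0 for HSD and HFSD, all before adjustment over the genes tested.

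Counted without adjustment, more members were lower than higher. In HFD 2 members were lower at an unadjusted limma p below 0.05 (DUSP2, DUSP6) and 0 were higher, where 2.51% of all genes tested were lower and 1.8% higher. In HSD 3 were lower (DUSP2, DUSP4, DUSP6) and 1 higher (DUSP10), against 4.51% and 2.7% of all genes. In HFSD 2 were lower (DUSP2, DUSP6) and 1 higher (DUSP10), against 4.37% and 3.7%. In the mean of the 3 diets against ND, 3 members were lower and 1 higher, with 3.08% and 1.93% of all genes. The median of the 8 members was -0.24 after HFD, -0.20 after HSD and -0.32 after HFSD on the log2 scale, while the median of all genes tested was within 0.01 of 0 in each. Single retinas weighed on both measures. The HFD median was -0.39 without HFD replicate 1 and -0.09 without HFD replicate 2, and the HSD median was -0.32 without HSD replicate 1 and -0.15 without HSD replicate 2. Over the 8 omissions of 1 retina, the count of lower members stayed at 2 in HFD, ran from 2 to 3 in HSD and from 2 to 3 in HFSD, and ran from 2 to 4 for the mean of the diets. The count of higher members ran from 0 to 1 in HFD, from 0 to 2 in HSD, from 0 to 1 in HFSD and from 0 to 1 for the mean. DUSP6 was among the lower members in all of these omissions. DUSP2 was not in HFD without HFD replicate 1, where DUSP7 passed in its place, nor in HSD without HSD replicate 2. DUSP10 did not pass 0.05 in HSD in 6 of the 8.

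By the study's limits, applied here to the ratio of means, the members past the lower limit were DUSP2 and DUSP6 in HFD (0.809% of 19293 protein-coding genes), DUSP2, DUSP4 and DUSP6 in HSD (2.42%), and DUSP2 and DUSP6 in HFSD (2.4%). DUSP1 in HFD was the 1 member past the upper limit, which 0.949% of genes passed there. No member passed it in HSD or HFSD, against 1.53% and 1.03% of genes.

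Both retinas of a diet lay below both ND retinas for 5 members after HFD, 5 after HSD and 6 after HFSD, and above for 1, 2 and 1. With 2 retinas a side such separations are common: 13.3%, 19.7% and 20.6% of all genes tested were separated below ND, and 12.5%, 19.3% and 21.6% above. All 6 diet retinas were below both ND retinas for 4 members (DUSP2, DUSP4, DUSP6 and DUSP7), which was true of 2.77% of genes, and above for 0 members, against 1.96%. With equal totals the count was 3, without DUSP7. For these 4 members the exact two-sided permutation test of 6 diet retinas against 2 ND retinas gave p = 0.0714, the smallest p this design allows. It gave 0.143 for DUSP5 and DUSP10, 0.571 for DUSP16 and 0.643 for DUSP1, all exact. A single diet against ND cannot go below an exact p of 0.333.

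The fat by sucrose interaction is the difference of HFSD from HSD less the difference of HFD from ND, with the unequal sucrose content noted above. DUSP6 had an interaction of +1.29 ± 0.45 on the log2 scale, meaning that its combined difference was smaller than the sum of the single ones. Its unadjusted limma p was 0.0226, where 3.74% of genes tested passed 0.05 in either direction, and its adjusted p was 0.999 (Benjamini-Hochberg). It passed 0.05 unadjusted in 4 of the 8 omissions of 1 retina. DUSP2 had +1.34 ± 0.72 and DUSP4 +0.57 ± 0.32, with the same adjusted p. Without ND replicate 1 that of DUSP2 was +0.68, and without HSD replicate 2 that of DUSP4 was +0.18. DUSP1 had -2.59 ± 1.24, which again rested on HFD replicate 2: it was -0.93 without that retina, and -4.25 with adjusted p = 0.033 without HFD replicate 1 (limma, Benjamini-Hochberg). For the mean of the 3 diets, DUSP6 was at -1.42 ± 0.26 and DUSP2 at -2.02 ± 0.41, with adjusted p = 0.287 and 0.387 (limma, Benjamini-Hochberg).

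The kinases that these enzymes act on, and those above them, had levels close to ND. Of the 20 tested genes of the Ras, Raf, MEK and ERK list, 10 were lower and 10 higher after HFD, as after HSD, and 11 were lower and 9 higher after HFSD, and the 3 medians were 0.00, 0.00 and -0.01 on the log2 scale. MRAS, a Ras-like GTPase, had 33.8 and 36.6 in ND and 52.7 and 43.7 in HSD, a log2 difference of +0.44 ± 0.16. The 20 tested genes of the JNK and p38 modules had medians of -0.03, 0.07 and 0.05, with MAPK8 (JNK1) at +0.32 ± 0.12 in HFSD, or +0.18 without HFSD replicate 2. In both lists 0 genes passed limma's adjusted threshold in any comparison, and 0 passed the study's limits.

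Of the 13 tested genes in the list of other feedback and output genes of ERK, 7 were lower and 6 higher after HFD, 10 lower and 3 higher after HSD, and 8 lower and 5 higher after HFSD. Their medians were -0.01, -0.11 and -0.16 on the log2 scale in that order. SPRY2, a Sprouty inhibitor of receptor signalling that is induced with DUSP6 in many tissues, had 56.3 and 64.8 FPKM in ND and 60.7 and 60.5 in HFD, with a log2 difference of 0.01. Its HSD and HFSD differences were -0.29 and -0.20, each ± 0.11, and the HSD one was -0.19 without ND replicate 2. SPRY3 was higher in HSD, with 3.95 and 4.28 against 2.36 and 1.95. SPSB1 was lower in HFSD at -0.49 ± 0.15, and EPHA2, an ephrin receptor, higher in HFD at +0.75 ± 0.28 from at most 3.5 FPKM. IER3, an early response gene, passed the study's lower limit in HSD and HFSD, where it stood between 3.64 and 7.02 against 7.05 and 12.4 in ND. ETV1, an ETS factor below the filter, passed it in HSD, with 0.142 and 0.0649 FPKM against 1.32 and 0.364 in ND, and stood at 0.111 and 0.382 in HFSD. None of those tested had an adjusted p below 0.05 (limma, Benjamini-Hochberg).

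Among receptors and ligands upstream, FGFR1 and FGFR2 were lower in the sucrose diets. FGFR1 had 11.5 and 14.0 FPKM in ND and 12.9 and 14.4 in HFD, against 9.14 and 10.1 in HSD and 8.66 and 8.45 in HFSD. FGFR2 was at 3.21 and 0.847 in ND and between 0.112 and 0.502 in the 4 sucrose retinas. The log2 differences in HFSD were -0.52 ± 0.14 for FGFR1 and -1.08 ± 0.38 for FGFR2, with adjusted p = 0.414 and 0.564 (limma, Benjamini-Hochberg). Without ND replicate 1 the FGFR2 difference was -0.48, and without ND replicate 2 it was -1.67. FGF12, an intracellular member of the ligand family that binds sodium channels, was higher in HFSD at +1.02 ± 0.36, with 50.2 and 57.4 against 41.8 and 16.1. Its ND retinas differed: without ND replicate 1 the difference was +1.68 with adjusted p = 0.031 (limma, Benjamini-Hochberg), the lone ND retina being assumed to vary like the other groups, and without ND replicate 2 it was +0.36. In this list of 7 tested genes the medians were 0.10, -0.10 and -0.10. Of 15 tested genes of the EGF family, neurotrophins and their receptors, EGF was lower in HFD at -0.41 ± 0.17, or -0.23 without HFD replicate 2. ERBB3, a neuregulin receptor of myelinating cells, passed the study's lower limit in HSD, with 0.189 and 0.245 against 2.94 and 0.281, and in HFSD, where 0.240 and 0.772 overlapped ND. FGFR2, ERBB3 and ETV1 were each highest in ND replicate 1, the library with the highest myelin marker sum, and the part of the myelin transcripts in them was not tested.

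The 13 tested phosphatases of the list of other enzymes that act on MAP kinases, such as atypical dual-specificity phosphatases, tyrosine phosphatases and protein phosphatase 2A subunits, had medians of 0.01, -0.06 and 0.08, and 0 of them had an unadjusted p below 0.05 against ND. STYXL1, a catalytically inactive relative of the family, passed the lower fold limit in HSD, where its retinas (1.52 and 4.58 FPKM) overlapped ND (7.91 and 2.99). Of 7 tested genes of the remaining dual-specificity phosphatases and related enzymes, DUSP11 and DUSP23 were lower in HFSD, at -0.27 ± 0.11 and -0.49 ± 0.18. DUSP13, below the filter, passed the upper fold limit in HSD through 1.41 FPKM in HSD replicate 2, the retina with muscle transcripts, and was listed at 0 in the other 7. STYXL1 and DUSP13 were named after their values were seen.

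**Figure D3:**
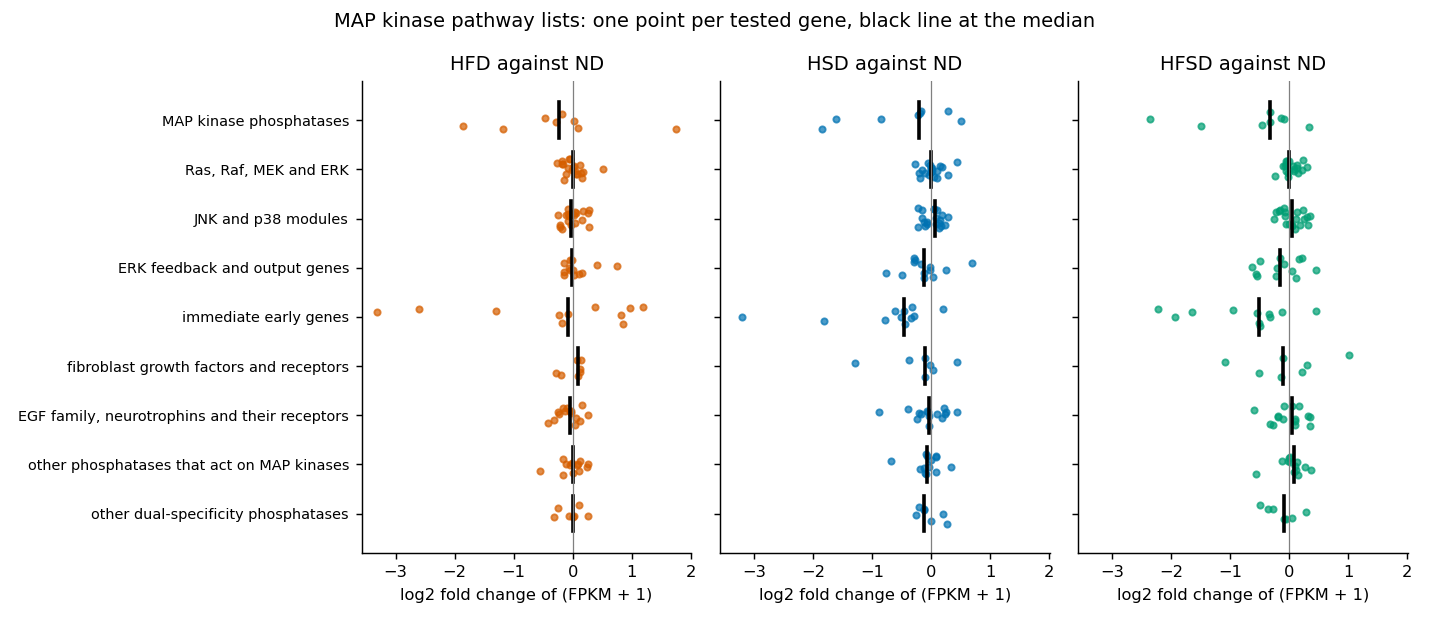
Log2 fold change of FPKM + 1 against ND (horizontal axes) for every tested gene of each list (rows), 1 panel per diet, with the median of each list as a black line. The kinase lists lay close to 0 in all 3 panels, with medians from -0.03 to 0.07, while the MAP kinase phosphatases and the immediate early genes spread widest.

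The immediate early genes, transcription factors and regulators that are switched on within minutes of ERK, calcium or stress signals, varied most from retina to retina. EGR1 had 1548 and 468 FPKM in ND. The HFD retinas had 28.9 and 242, the HSD retinas 366 and 159, and the HFSD retinas 375 and 131. All 6 diet retinas were below both ND retinas, as for DUSP2, and the HFD difference was -3.32 ± 1.04 with adjusted p = 0.998 (limma, Benjamini-Hochberg), or -1.81 without HFD replicate 1. FOSB had 170 and 19.5 FPKM in ND, against 2.68 to 24.8 in the diets, so ND overlapped HFD. ND replicate 1 held the highest value of DUSP2, EGR1, FOSB, FOS and JUN. Among the 11 tested genes of this list the medians were -0.08, -0.46 and -0.52, and 10 of 11 were lower in HSD and in HFSD. KLF6 was the gene that was higher in HFSD, at +0.45 ± 0.16.

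HFD replicate 2, the retina with DUSP1 at 55.2 FPKM, also stood apart in other early genes. It had 53.5 FPKM of ATF3, a stress-induced factor, against 5.21 to 9.70 in the other 7 retinas. It had 153 of BTG2, an antiproliferative early gene, against 3.24 to 14.8. NR4A1 was at 95.8 against 8.97 to 31.6, and NR4A2 at 31.8 against 4.70 to 9.77, both orphan nuclear receptors. The same retina lay within the range of the others in DUSP2 (124 against 57.6 to 493), in EGR1 (242 against 28.9 to 1548) and in FOSB (24.8 against 2.68 to 170). It came next after ND replicate 1 in FOS (222 against 285) and JUN (95.8 against 118). ND replicate 1 in turn was the highest of the other 7 retinas in ATF3, BTG2, NR4A1 and NR4A2. DUSP1 and DUSP2, both inducible, peaked in different retinas, HFD replicate 2 and ND replicate 1, and both retinas were high in several early genes.

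**Figure D4:**
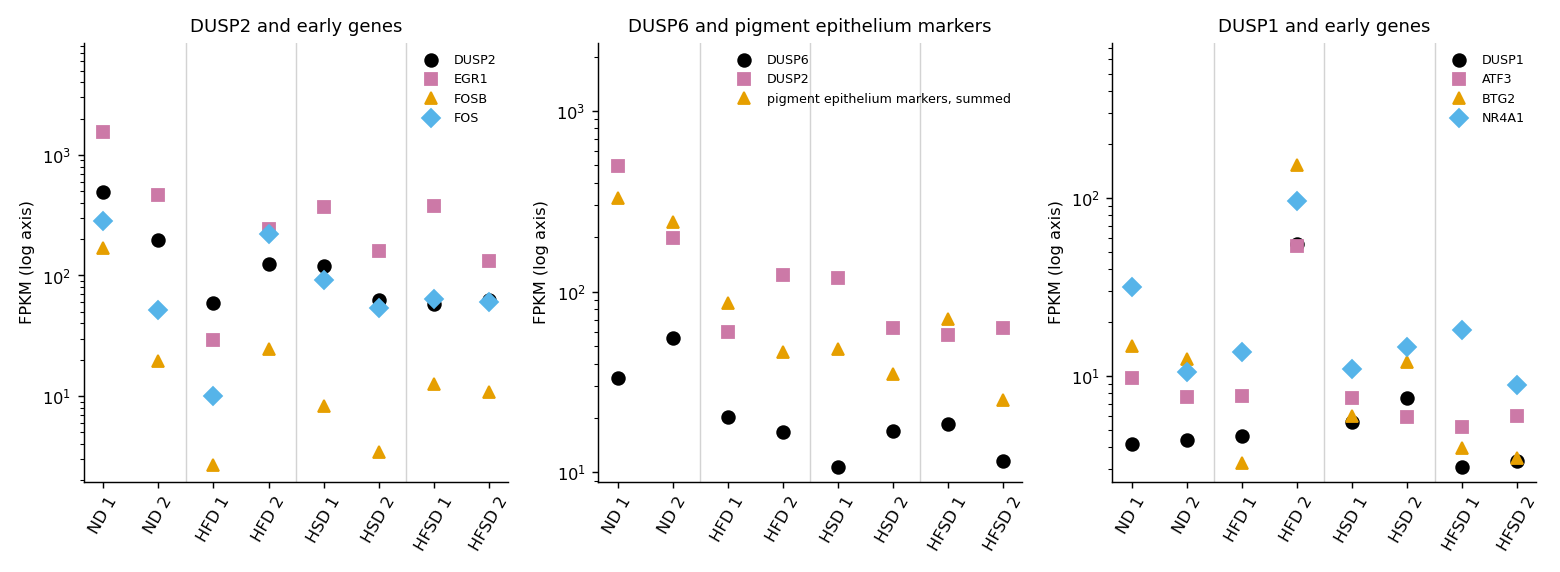
FPKM on log axes (vertical) in each of the 8 retinas (horizontal, by diet and replicate), for DUSP2 beside EGR1, FOSB and FOS, for DUSP6 and DUSP2 beside the summed pigment epithelium markers, and for DUSP1 beside ATF3, BTG2 and NR4A1. ND replicate 1 was highest for DUSP2 and its 3 companions, both ND retinas were highest for DUSP6 and the pigment markers, and HFD replicate 2 was highest for DUSP1 and its 3 companions.

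Over the 8 libraries, the genes whose log2(FPKM + 1) ran most like a member's were named by Pearson's r, as a description. The points share library, depth and diet. For DUSP1 they were CIART (r = 0.974), DCP1B (0.964) and ATF3 (0.941), where HFD replicate 2 stands far from the other points and Spearman's rho was 0.833, 0.667 and 0.429. DUSP2 ran most like CYP2S1 (0.935), CIT (0.933) and TP53INP1 (0.932), and DUSP6 like CYBRD1 (0.962), CMTM6 and RAB11FIP5 (both 0.957). DUSP4 ran most like FNBP1 (0.964), NDRG2 (0.954) and GPR157 (0.942), and DUSP10 like HPCAL4 (0.970), PKIA (0.963) and SHISA6 (0.961). For DUSP5 the genes were PDHX (0.939) and ZC3H12A, for DUSP7 PARS2, WWC1 and PMS2, and for DUSP16 TEF (0.967), DDX41 and CCDC102A. No member was among the 3 genes nearest to another member. Between members r was 0.61 for DUSP2 with DUSP6, -0.74 for DUSP6 with DUSP10 and -0.91 for DUSP1 with DUSP7, the last again with HFD replicate 2 far from the other points.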

How the data were processed

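Total RNA of dissected rabbit retinas was extracted with TRIzol and DNase-treated, and libraries were made with the TruSeq kit. The authors checked the reads with FastQC, trimmed their 5′ ends, mapped them with TopHat2, discarded reads that mapped to more than 1 place and computed FPKM per gene and library. Discarding such reads lowers genes with near-identical copies. The genome build, the annotation and the use of strand are not given in the sources used here, so no coordinates or sequences are printed, and symbols are those of the deposited FPKM table. RefSeq (mOryCun1.1) gave only names and neighbours, and matched all 9 symbols.

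For 100% of expressed rows a gene length was found that made the FPKM values whole multiples of 1 fragment (tolerance 0.01 fragments). The shortest such length was kept, and gave the fragments. Rows with values in few libraries meet this easily. In ND replicate 2 and HFD replicate 1 the recovered fragments (18161547 and 20430536) exceeded the depth by which FPKM had been scaled (17706804 and 19970643). Depth limits the precision of low genes, and counting error was not modelled in the main test. Values were tested as log2(FPKM + 1), a scale that understates changes of low genes, with limma 3.58.1 (R 4.3.3) and an intensity trend. Group means of all 8 libraries shared 1 spread, and p-values were adjusted by Benjamini-Hochberg over the 12204 protein-coding genes that reached 1 FPKM in 2 or more libraries. The fold rule is the study's ratio of FPKM + 1, with its lower limit of 0.65. It was applied here to the means of the 2 retinas, a choice the sources used here do not state. Exact permutation tests used scipy 1.17.1.

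The text names the 9 members. From each pathway list it names the genes with an unadjusted p below 0.05 in a diet against ND, or past the fold rule with both retinas beyond both ND retinas. For each member it names the 3 genes of highest Pearson r. Some genes that this rule selects are not reported here. FOS, JUN, ATF3, NR4A1 and NR4A2 were added after their values were seen. The members and lists were chosen with earlier results of these data known. Alternatives were another pseudocount, no filter, equal totals, voom on the recovered fragments, only the libraries compared, a replicate block and leaving out each retina.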

Additional observations from a re-analysis of the deposited data

Results flagged for a closer look

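In FPKM, the effect of fat in DUSP1 and DUSP7 ran in opposite directions without and with sucrose, in every retina. DUSP1 was higher in both HFD retinas than in both ND retinas and lower in both HFSD retinas than in both HSD retinas, and its interaction was -2.59 on the log2 scale. Leaving out single retinas moved it between -4.25 and -0.93, both reached by leaving out an HFD retina. DUSP7 was lower in both HFD retinas than in ND and higher in both HFSD retinas than in HSD, where the nearest values were 13.98 and 13.94 FPKM, and its interaction was 0.42, or 0.64 and 0.19 without HFD replicates 1 and 2. With equal totals the HFSD and HSD retinas of DUSP7 overlapped. DUSP1 in HFD replicate 1 was then at 4.14, below both ND retinas (4.26 and 4.20). Neither pattern thus held in every retina on that scale. The difference between the 2 effects was tested by limma's interaction term, and both had an adjusted p of 0.999 (Benjamini-Hochberg). With 2 retinas a diet, no sample could be examined as an outlier of its group.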

How the results depend on the processing

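With 2 retinas a diet, the spread is estimated from few values, and no member was called in the comparisons as reported. The limma calls among members changed only when HFD replicate 1 was left out: then 1 member, DUSP1, was called in HFD and in the interaction, so the count of members ran from 0 to 1 over the omissions. Members past the fold limits, 3 in HFD, 3 in HSD and 2 in HFSD, became 4 in HFD with a pseudocount of 0.1 (DUSP5 added). Omitting 1 retina gave 2 to 3 in HFD, 2 to 4 in HSD (DUSP1 added without HSD replicate 1, DUSP4 lost without HSD replicate 2) and 2 in HFSD. DUSP2 kept a lower value against ND in all 14 alternatives, from -2.51 to -1.20 in HFD, -2.49 to -1.18 in HSD and -3.01 to -1.70 in HFSD. DUSP6 did so from -1.54 to -0.82, -1.96 to -1.24 and -1.85 to -1.13.

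Small values changed sign. With equal totals, DUSP10 in HFD became -0.0256 and the DUSP16 interaction 0.0035. Over the omissions of 1 retina, DUSP5 in HSD ran from -0.346 to 0.014, DUSP16 in HFSD from -0.284 to 0.00064, and the interaction from -0.0448 to 0.0664 for DUSP10 and from -0.188 to 0.0966 for DUSP16.

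The number of genes called of all tested, 1 in HFD, 7 in HSD, 2 in HFSD, 1 in the interaction and 3 for the mean of the diets, moved as follows. Fitting only the 4 libraries compared gave 2, 3 and 0 for HFD, HSD and HFSD. No filter gave 3 in HSD and 0 in the interaction. The voom fit on fragments gave 2 in HSD, 4 in HFSD, 0 in the interaction and 11 for the mean, equal totals gave 4 in HFSD, and a pseudocount of 0.1 gave 0 in the interaction. Omitting 1 retina gave 1 to 2, 3 to 12, 2 to 11, 0 to 6 and 1 to 6. The number past the fold limits, 339, 762 and 661 in HFD, HSD and HFSD, became 1533, 2311 and 2145 with a pseudocount of 0.1. Omitting 1 retina gave 629 to 777 in HFD, 881 to 1116 in HSD and 831 to 1200 in HFSD. The cause of these changes was not tested.

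Replicate numbers only name the retinas: deviations of same-numbered retinas correlated between -0.165 and 0.081 over genes. A replicate block gave 4 calls in HFSD, 0 in the interaction and 1 for the mean of the diets, and left 0 members called.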

Other observations

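The marker lists of other retinal cells described the libraries from which the phosphatases were measured. Cone markers summed to between 1208 and 1356 FPKM in the 4 sucrose retinas and between 686 and 1014 in the other 4. Among them GNGT2 and CNGB3 overlapped between these sets of retinas. Horizontal cell markers summed to between 57.6 and 70.2 in the sucrose retinas and between 52.9 and 56.8 in the others. That split was in the sum only: CALB1, PROX1, LHX1, ONECUT1 and ONECUT2 each overlapped. Microglia and macrophage markers were between 9.80 and 13.8 FPKM in the sucrose retinas and between 14.5 and 25.3 in the others. C1QA, C1QB, C1QC and CSF1R each split this way, while CX3CR1, P2RY12, TYROBP, AIF1 and PTPRC overlapped. Amacrine markers (366 to 448) and endothelial markers (104 to 150) showed no such split. These sums are of FPKM, were compared after their values were seen and were not tested.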
